A study of Mus musculus with 24 samples.

Results

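Cartilage genes were examined in the developing jaws of mouse embryos whose neural crest carries a deletion of the TGF-beta receptor gene Tgfbr2, and of control littermates. The list holds 36 genes named for their known part in cartilage: its transcription factors, its collagens, its proteoglycans and other matrix proteins, its sulfation enzymes and its signals. They were chosen by function, with earlier results of these data known. On the array 35 of the 36 have a probe set that names that gene alone, among 18194 genes with such a probe set, and Xylt1 was not matched. For a gene with several probe sets the one brightest on average across the 24 arrays was read. Genes were tested if 3 or more arrays had that value above their own 40th percentile. This left 33 of the 35 cartilage genes among 13850 genes, and Col10a1 and Nkx3-2 did not pass. A gene bright in 1 group alone can pass this filter.

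All embryos were on the C57B6 background and were taken at embryonic day 13.5. They came from crosses of Wnt1cre;Tgfbr2fl/+ with Tgfbr2fl/fl mice. Mutants were recognised by a cleft palate together with a calvarial (skull vault) defect. Controls were littermates, and their own alleles at the Cre and at Tgfbr2 are not stated in the sources at hand. Wnt1-Cre is active in the neural crest, whose cells form the skeleton and connective tissue of the jaws, so muscle, epithelium and blood of the same pieces are not its target. Mandible and maxilla were each cut into a distal and a proximal end. This gives 8 groups (2 genotypes, 2 jaws, 2 ends) of 3 arrays, with replicates numbered 1 to 3. The 4 arrays that share a genotype and a replicate number are called a set here. Whether replicates were separate animals or pools is not stated, so the p-values reflect variation among these samples only, part of which may be technical. In mutant sets 2 and 3 Xist was high (13.52 and 13.19) together with the Y-linked Eif2s3y, Kdm5d and Uty (mean 8.81 and 9.20), while each of the other 4 sets was high in only one of these.

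Jaw cartilage arises when neural crest cells condense and switch on Sox9, which with Sox5 and Sox6 drives the genes of the cartilage matrix. That matrix is a mesh of type II, IX and XI collagen around aggrecan, held by link protein and matrilins. In the mandible the first cartilage is Meckel's rod, while the upper jaw of this stage is known for cartilage of the nasal capsule and of the skull base nearby. The tissue pieces are mixed, so in these values fewer cartilage cells and less RNA per cartilage cell cannot be told apart.

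The arrays had medians between 7.003 and 7.08 on the log2 scale. Tgfbr2 read 12.11 ± 0.116 (SD, n = 12) on control arrays and 12.42 ± 0.130 (SD, n = 12) on mutant arrays, a difference of 0.31 ± 0.0543 (SE; adjusted p = 0.000296 in limma with Benjamini-Hochberg adjustment). That p-value takes the 12 arrays of a genotype as independent, though the arrays of a set correlated at 0.40, so it may be too small. Where the probes of Tgfbr2 lie relative to the deleted part is not known here, so its value is no check of the deletion. Hand2, a gene of the mandible, read 13.30 ± 0.140 (SD) in the control distal mandible and 8.14 ± 0.531 (SD) in the control distal maxilla, as the jaw labels have it. The Gapdh 3′ minus 5′ difference, a measure of RNA or labelling quality, was 0.0385 ± 0.0671 (SD) over control arrays, and it averaged 0.455, 0.0594 and 0.543 in mutant sets 1, 2 and 3. A fit with it as a covariate is among the alternatives tried.

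A single array stood apart in the cartilage genes. On array 1 of the mutant distal maxilla, 28 of the 33 tested cartilage genes were the highest of their group, against 38.3% of all genes. There 25 of the 33 lay more than 1 log2 unit above the mean of the other two arrays, against 2.01% of all genes. The median gap of the 33 genes was 2.43. Other tissue markers moved on the same array. Of 13 skeletal muscle genes, 10 lay more than 1 log2 unit lower, while 5 of 10 neuron genes and 4 of 10 epithelial genes lay as far higher. On the same array the list of 5 mandible genes averaged 9.11 against 8.88 and 8.87 on the other two, with a median gap of 0.61 and 1 gene more than 1 log2 unit lower, and the list of 4 maxilla genes averaged 10.82 against 11.01 and 11.02. Array 1 of the control distal mandible stood apart the other way. All 33 genes were lowest there, against 32.9% of all genes. Of the 33, 20 lay more than 1 log2 unit below the mean of the other two, against 0.267% of all genes, which is 37 genes. On that array none of the tested genes of the muscle, bone, tendon, epithelium, neuron or endothelium lists was off by more than 1 log2 unit. Results that rest on the mutant distal maxilla are given below with and without its array 1. That array was picked out by the values of these same genes, and 2 arrays remain in its group. Calls and p-values of any fit without it therefore follow in part from that choice. The share of all genes called does not correct for this. The same holds for fits without array 1 of the control distal mandible.

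The 250 bases before the start of 4 members are shown because these genes carry the regional differences below: Matn1 and Cnmd had the largest measured log2 differences of the members, Col9a1 was the member called in the test of jaw against end, and Epyc followed the proximal ends of both jaws. The sequences are from RefSeq (build GRCm38.p6), written 5′ to 3′ on the strand of the gene. Capitals mark ATTGTT, which is AACAAT on the opposite strand, a hexamer that SOX proteins are known to bind. The windows are chr4:130944135-130944384 (plus strand), chr14:79662184-79662433 (minus strand), chr1:24177360-24177609 (plus strand) and chr10:97643818-97644067 (plus strand).
Matn1: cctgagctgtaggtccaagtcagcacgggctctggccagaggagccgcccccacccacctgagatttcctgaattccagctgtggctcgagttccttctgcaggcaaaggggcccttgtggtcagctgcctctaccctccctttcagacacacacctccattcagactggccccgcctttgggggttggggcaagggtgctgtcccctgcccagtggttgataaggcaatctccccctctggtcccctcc
Cnmd: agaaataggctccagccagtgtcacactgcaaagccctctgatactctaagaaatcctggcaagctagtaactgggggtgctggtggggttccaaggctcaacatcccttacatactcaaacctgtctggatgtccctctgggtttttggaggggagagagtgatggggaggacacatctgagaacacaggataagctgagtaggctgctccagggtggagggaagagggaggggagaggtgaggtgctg
Col9a1: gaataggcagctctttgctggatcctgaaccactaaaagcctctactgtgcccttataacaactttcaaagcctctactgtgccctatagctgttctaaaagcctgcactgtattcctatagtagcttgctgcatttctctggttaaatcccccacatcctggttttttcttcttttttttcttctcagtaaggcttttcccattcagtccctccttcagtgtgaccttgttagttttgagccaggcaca
Epyc: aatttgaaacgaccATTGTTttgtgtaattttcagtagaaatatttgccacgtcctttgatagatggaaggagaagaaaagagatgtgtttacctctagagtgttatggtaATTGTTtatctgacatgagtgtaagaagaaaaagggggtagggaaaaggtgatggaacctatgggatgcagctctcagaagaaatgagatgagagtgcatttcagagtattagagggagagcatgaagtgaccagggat
The Epyc window holds the hexamer at -236 and -139 relative to the start, and the other 3 windows hold none. The table has windows for 27 of the members, 40 in all, since some genes have several starts. On either strand, AACAAT stood in 4 of the 40 member windows and in 9.42% of all 32851 windows of that length. A further SOX hexamer, ACAAAG, stood in 8 of the 40 against 16.5%, and the TATA-box letters TATAAA in 5 of the 40 against 12.4%. No other match to these 3 hexamers lies in the 4 windows printed. These are counts of letters and say nothing of binding.

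As a description of the module, the mean log2 value over the 35 matched genes was taken on each array. With all arrays its group mean was lowest in the control distal maxilla, at 7.96, 7.86 and 7.88 on the 3 arrays (mean 7.90 ± 0.0508, SD, n = 3). In the control proximal maxilla it read 9.79, 9.28 and 10.09 (9.72 ± 0.409), in the control distal mandible 8.67, 10.24 and 9.60 (9.50 ± 0.793), and in the control proximal mandible 9.49, 10.35 and 9.99 (9.94 ± 0.431). All 3 arrays of the control distal maxilla thus lay below all other control arrays, and the other 3 control groups overlapped. The mutant proximal mandible was the highest group, at 10.52, 10.21 and 10.55 (10.43 ± 0.187), and the mutant distal mandible read 9.65, 9.33 and 9.21 (9.40 ± 0.228). The mutant proximal maxilla read 9.72, 9.05 and 9.76 (9.51 ± 0.398). In the mutant distal maxilla arrays 2 and 3 both read 7.85, beside 10.10 on array 1, so that the group mean of 8.60 ± 1.30 fell to 7.85 without array 1. The order of the 2 lowest groups then turned, with the mutant distal maxilla at 7.85 below the control distal maxilla at 7.90.

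**Figure D1:**
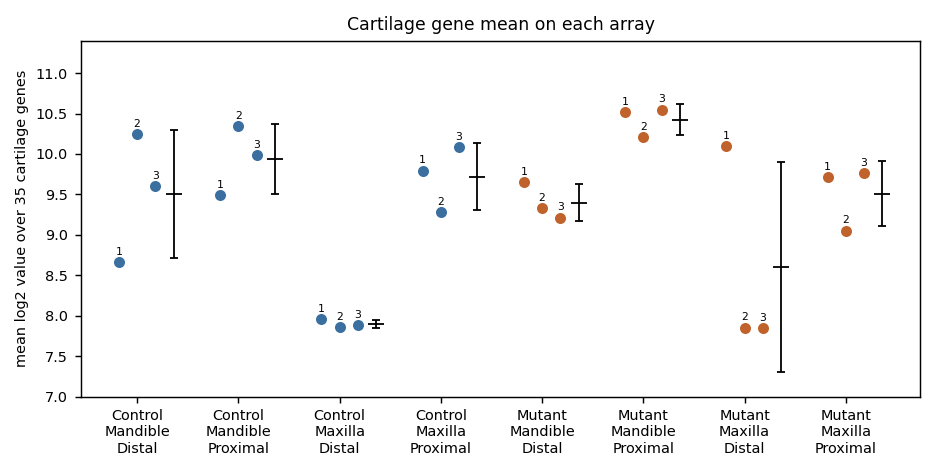
Mean log2 value over the 35 matched cartilage genes on each array (vertical axis), by group; points are arrays with their replicate number, blue for control and orange for mutant, and the bar beside them is the mean ± SD of 3. The 3 control distal maxilla arrays sit between 7.86 and 7.96, and array 1 of the mutant distal maxilla sits at 10.10 beside 7.85 for the other two.

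The members shared this order of groups to different degrees. The control distal maxilla was the lowest of the 8 group means for 27 of the 33 tested members, against 8.74% of all genes. This count rested on array 1 of the mutant distal maxilla: without it the control distal maxilla was lowest for 9 members (7.55% of all genes) and the mutant distal maxilla for 21 (14.7%), so one or the other was lowest for 30 of the 33. The mutant proximal mandible was the highest for 24 of the 33, against 10.5% of all genes, and for as many without that array. Over the 8 group means, which share their arrays and their tissue mix, 19 members had a Pearson correlation over 0.9 with the module mean, of which they are themselves a part. Col9a3, Cnmd, Col2a1 and Col9a2 led these at 0.99. Runx3 (-0.24) and Trps1 (-0.20) ran against the module, and Pth1r (0.26) ran largely apart from it. Col10a1, the collagen of hypertrophic cartilage, read 5.38 ± 0.184 (SD) over all 24 arrays and Nkx3-2, a repressor active in early chondrocytes, 5.28 ± 0.183, both below the 40th percentile of the arrays, which lay between 6.26 and 6.34.

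**Figure D2:**
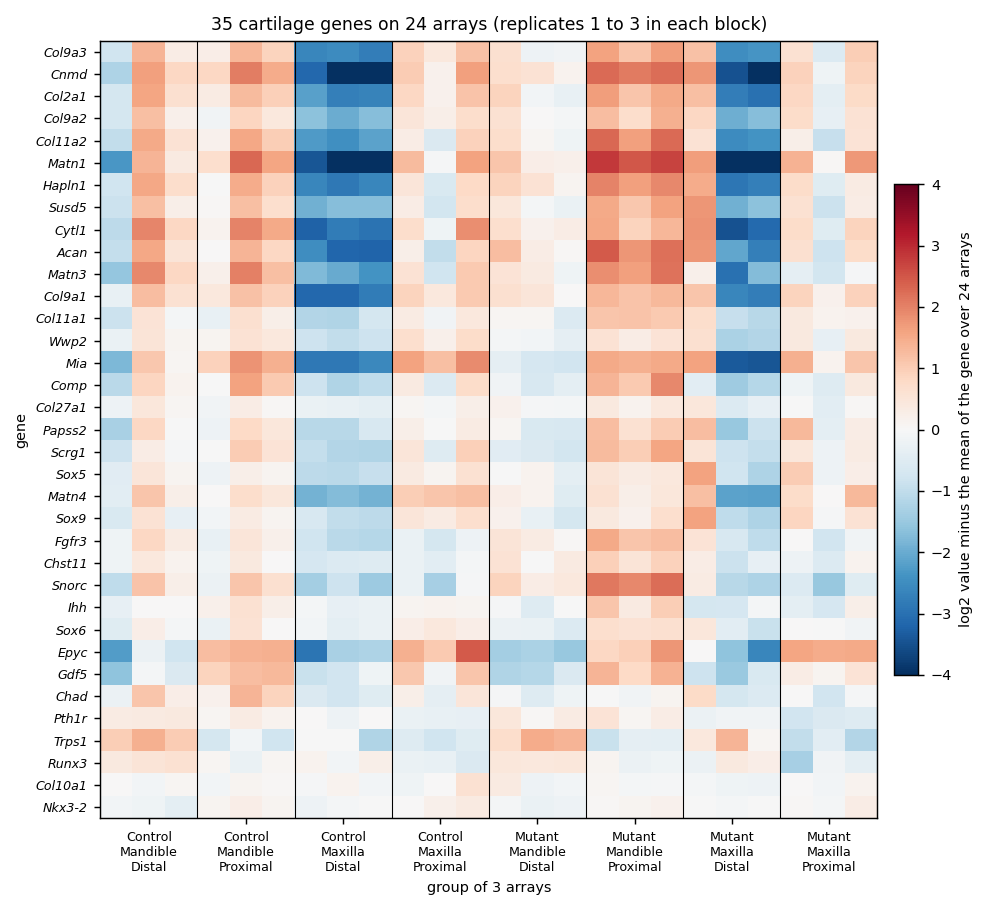
Log2 value of each of the 35 matched cartilage genes minus its own mean over the 24 arrays (colour, red above and blue below, from -4 to 4), with replicates 1 to 3 side by side in each of the 8 groups; genes are ordered by their correlation with the module. The blue block is the control distal maxilla and arrays 2 and 3 of the mutant distal maxilla, and Trps1 and Runx3 near the foot do not share it.

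In control embryos, the cartilage genes were lower at the distal than at the proximal end of the maxilla. Of the 33 tested, 16 were called lower and 0 higher by limma with Benjamini-Hochberg adjustment over all 13850 genes, against 2.69% of all genes called lower and 3.37% called higher. The median difference of the 33 was -1.43, against 0.01 for all genes. For 29 of the 33 every distal array lay below every proximal one, against 15.7% of all genes. Without array 1 of the mutant distal maxilla, which enters this fit only through the shared estimate of spread, 21 were called lower (3.33% of all genes), including all 16. With the replicate number as a block 18 were called (4.89% of all genes), with Sox5 and Col11a1 added.

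Sox9, the master regulator of chondrocyte fate, read 9.22, 8.86 and 8.79 on the distal arrays and 10.32, 10.18 and 10.51 on the proximal ones. The arrays did not overlap, and the difference of -1.38 ± 0.501 (SE) was not called (adjusted p = 0.128), though it was without the mutant array that stood apart (adjusted p = 0.00381). Sox5, its partner, behaved likewise with a difference of -1.37 ± 0.477 (adjusted p = 0.109, and 0.00186 without that array). Sox6 differed by -0.58 ± 0.252 (adjusted p = 0.236). Each of the 3 had a smaller log2 difference than Col2a1.

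Col2a1, the main collagen of cartilage, read 9.73, 9.17 and 9.23 in the distal maxilla and 12.73, 12.07 and 13.04 in the proximal maxilla. All distal arrays lay below all proximal arrays, and the difference was -3.24 ± 0.777 (SE; 9.43-fold lower, adjusted p = 0.0149). The type IX collagens, which sit on the surface of the type II fibril, fell with it: Col9a1 by 3.82 ± 0.656 on the log2 scale (14.1-fold, adjusted p = 0.00119), Col9a3 by 3.46 ± 0.703 (adjusted p = 0.00467) and Col9a2 by 2.24 ± 0.550 (adjusted p = 0.0169). Of the type XI collagens of the fibril core, Col11a2 fell by 2.50 ± 0.692 (adjusted p = 0.0360), while Col11a1, which loose mesenchyme is also known to express, differed by -1.23 and was called only under other settings. Col27a1 was not called.

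Among the aggregate proteins, Matn1, a matrilin largely restricted to cartilage, showed the largest measured log2 difference of all members. It read 6.30, 5.13 and 5.20 on the distal arrays and 10.98, 9.69 and 11.33 on the proximal arrays, so the distal values lay at or below the level of the filter and the proximal ones far above it. The measured difference was -5.12 ± 1.16 (SE; adjusted p = 0.00997), and no fold is read from it, since Col10a1, which did not pass the filter, averaged 5.38. Acan, the aggrecan core protein, read 6.51, 5.84 and 5.79 against 9.23, 8.02 and 9.85, a difference of -2.99 ± 0.859 (adjusted p = 0.0448). Hapln1, the link protein that ties aggrecan to hyaluronan, fell by 2.91 ± 0.814 (adjusted p = 0.0379) and Matn4, another matrilin, by 2.95 ± 0.609 (adjusted p = 0.00541). Matn3 differed by -2.34 and was not called, while its other, dimmer probe set differed by -3.95, for which no test is given.

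The secreted and membrane proteins of cartilage followed. Cnmd, chondromodulin, an inhibitor of blood vessel growth, read 7.85, 6.81 and 5.96 on the distal arrays and 12.01, 11.17 and 12.63 on the proximal ones. No distal array came near a proximal one, and the measured difference was -5.07 ± 1.03 (SE; adjusted p = 0.00467). The lowest distal value lay below the level of the filter, so no fold is read from it. Mia, a small secreted protein of cartilage, fell by 4.34 ± 0.903 (20.3-fold), and Cytl1, a secreted cytokine-like protein, by 3.79 ± 0.996 (13.8-fold). Epyc, a small leucine-rich proteoglycan of growth cartilage, fell by 3.45 ± 0.572 (adjusted p = 0.000854), the smallest adjusted p of the members here. Wwp2, a ubiquitin ligase whose gene hosts a cartilage microRNA, fell by 1.44 ± 0.352, Scrg1 by 1.43 ± 0.388 and Gdf5, the growth factor of future joints, by 1.29 ± 0.363 (adjusted p = 0.0399).

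Fgfr3, the receptor that slows chondrocyte proliferation, differed by -0.62 ± 0.325 (adjusted p = 0.366). Neither Ihh, the hedgehog of prehypertrophic chondrocytes (-0.34 ± 0.225), nor Pth1r, the receptor for its relay PTHrP (0.24 ± 0.110), was called. Trps1, a GATA-type repressor, and Runx3, a factor of chondrocyte maturation, differed by 0.20 ± 0.336 and 0.47 ± 0.222, upward and not called. Of the other members not called, Comp, Susd5, Papss2, which makes the sulfate donor, Chad, Snorc and Chst11 had values from -1.87 ± 0.713 (Susd5) to -0.33 ± 0.245 (Chst11), all below 0. The other, dimmer probe set of Susd5 differed by -3.81, for which no test is given. Leaving out control set 1, 2 or 3 in turn, with 2 arrays left in each control group, left 3, 6 and 2 calls. Why the count fell was not tested. The share of all genes called in those fits is not given here. Other tissues differed between the same ends. Neuron genes were lower distally in 8 of 10 (median -2.10; per-array means of the list 8.45 to 8.63 distally and 10.56 to 10.99 proximally), epithelial genes were higher in 7 of 10 (median 1.33; 10.46 to 10.70 against 9.24 to 9.54), and 0 of 13 skeletal muscle genes were called (median -0.34). Their part in the cartilage result was not tested.

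**Figure D3:**
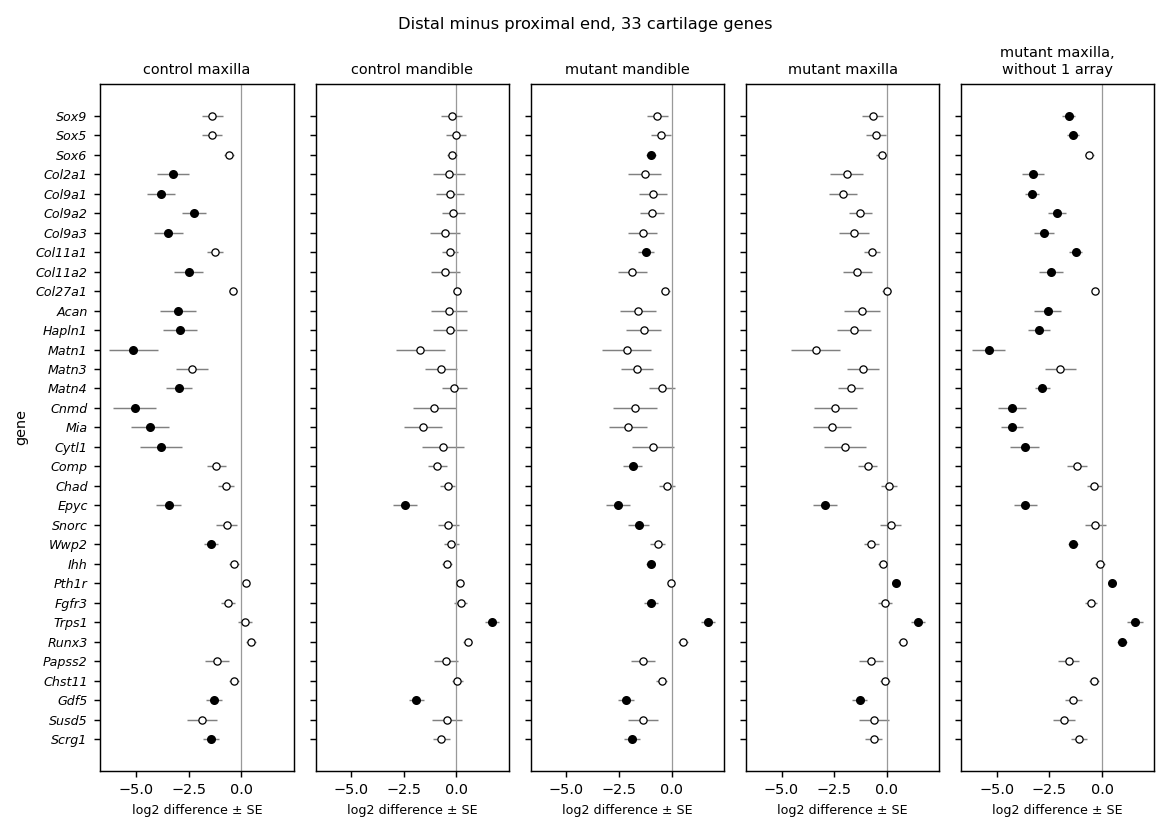
Distal minus proximal log2 difference ± SE (horizontal axis) for the 33 tested cartilage genes, in the 2 jaws of each genotype and, at right, in the mutant maxilla without its array 1; filled points were called by limma (adjusted p under 0.05). The control maxilla has 16 filled points at the left of 0 and the control mandible 2, Epyc and Gdf5, with Trps1 at the right of 0 in the control mandible and in both mutant jaws.

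At the distal end the control mandible was then set against the control maxilla, whose 3 distal arrays also serve in the comparison above, so the results are not independent. Of the 33 members, 15 were called higher in the distal mandible than in the distal maxilla and 0 lower (3.51% and 5.7% of all genes), and the median difference was 1.33. In 25 of the 33 the mandible arrays all lay above the maxilla arrays (15.7% of all genes). Cnmd read 9.74, 12.63 and 11.80 in the distal mandible, all above the maxilla values given above, and differed by 4.52 ± 1.03 (SE; adjusted p = 0.00694). Matn1 differed by 3.97 ± 1.16, Cytl1 by 3.57 ± 0.996, Col9a1 by 3.55 ± 0.656 (adjusted p = 0.00127), Acan by 3.32 ± 0.859 and Col2a1 by 3.02 ± 0.777 (adjusted p = 0.0163).

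Of the regulators and signals, Trps1, Fgfr3 and Pth1r were called. Trps1 read 12.29, 12.74 and 12.32 in the distal mandible and 11.29, 11.29 and 10.11 in the distal maxilla, a difference of 1.55 ± 0.336 (SE; adjusted p = 0.00480). Fgfr3 differed by 1.33 ± 0.325 (adjusted p = 0.0114) and Pth1r by 0.42 ± 0.110 (adjusted p = 0.0196). Sox9 (0.77 ± 0.501, adjusted p = 0.506), Epyc (0.72 ± 0.572, adjusted p = 0.638) and Gdf5 (-0.15 ± 0.363, adjusted p = 0.95) were not called. Without array 1 of the mutant distal maxilla 20 members were called, including all 15 (3.99% of all genes), and without array 1 of the control distal mandible 18. Leaving out control set 1, 2 or 3 left 13, 1 and 1. For these fits, and for the one that gave 18, the share of all genes called is not given here. Skeletal muscle genes went the other way at these ends: 12 of 13 were lower in the mandible (median -2.62; per-array means 7.25 to 8.36 against 10.30 to 10.79). Their part was not tested.

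Between the ends of the control mandible, 1 of the 33 members was called higher distally and 2 lower, against 6.24% and 7.08% of all genes. These shares are near or below those of all genes, and the median difference was -0.36. Epyc read 6.03, 8.03 and 7.49 distally and 9.50, 9.68 and 9.69 proximally, without overlap, and fell by 2.44 ± 0.572 on the log2 scale (SE; adjusted p = 0.00676). Its lowest distal value lay below the level of the filter. Gdf5 read 6.08, 7.64 and 7.11 against 8.61, 8.94 and 8.9998, again without overlap, and fell by 1.90 ± 0.363 (adjusted p = 0.00125). Trps1 was higher distally by 1.68 ± 0.336 (adjusted p = 0.00193). Col2a1, by contrast, read 11.19, 13.47 and 12.53 against 12.25, 13.16 and 12.86, so the ends overlapped and the difference was -0.36 ± 0.777 with a 95% interval from -1.99 to 1.27. Skeletal muscle genes were lower distally in 12 of 13 (median -2.75; per-array means 7.25 to 8.36 against 10.30 to 10.86), a value set beside these 3 calls without a test of its part.

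**Figure D4:**
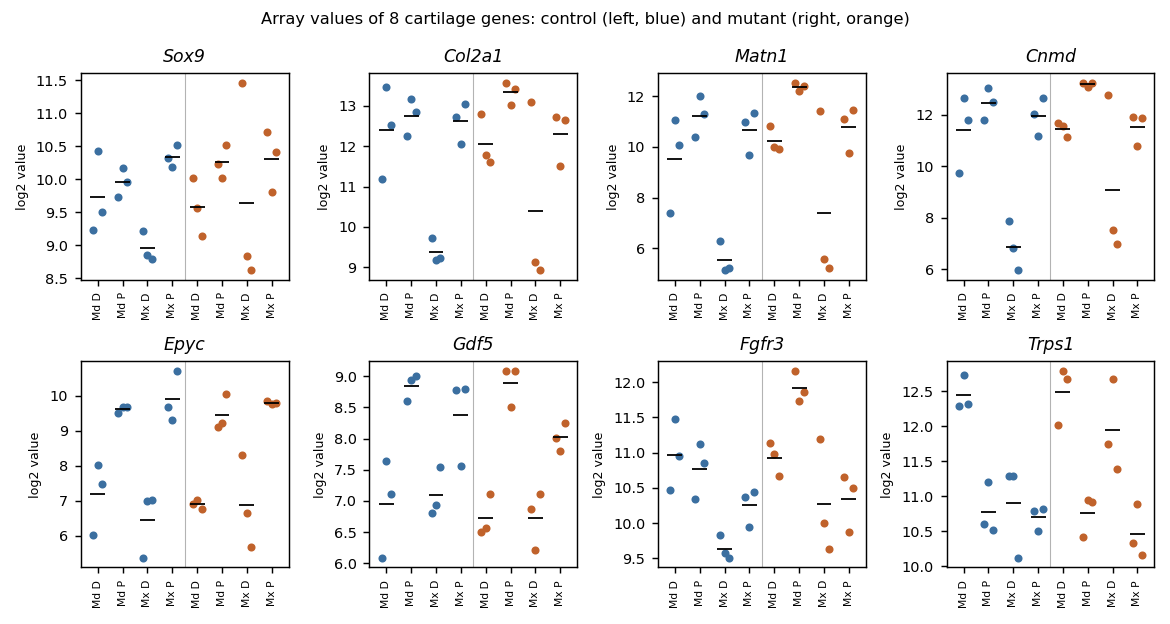
Log2 value on each array (vertical axis, its range set per gene) for 8 cartilage genes, by group: Md is mandible, Mx maxilla, D distal and P proximal, with control arrays in blue at left, mutant arrays in orange at right, and the group mean as a short line. Sox9, Col2a1, Matn1 and Cnmd have their lowest arrays in the distal maxilla, Epyc and Gdf5 have lower means at the distal end of both jaws, and Trps1 has its highest means in the distal mandible.

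At the proximal end the control jaws differed in 1 member of 33, with 0.968% of all genes called higher in the mandible and 1.65% lower. Pth1r read 11.78, 12.04 and 11.85 in the mandible, above the 11.45, 11.44 and 11.39 of the maxilla, a difference of 0.47 ± 0.110 (SE; adjusted p = 0.0251). The median over the members was 0.22. The test of jaw against end in controls, the distal minus proximal difference of the mandible minus that of the maxilla, called 1 member higher and 0 lower (1.13% and 1.6% of all genes). That was Col9a1, at 3.503 ± 0.927 (SE; adjusted p = 0.0484). Its call was lost without array 1 of the control distal mandible, without the filter on low values, with the mean of all probe sets of a gene, and with any control set or mutant set 2 or 3 left out. Without array 1 of the mutant distal maxilla the test called 10 members (1.71% of all genes): Sox5, Col2a1, Col9a1, Col9a2, Col9a3, Hapln1, Matn4, Cnmd, Mia and Wwp2, all upward. With the replicate number as a block it called 3 (2.21% of all genes), Col9a1, Matn4 and Trps1.

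Between the ends of the mutant mandible, 9 of the 33 members were called lower distally and 1 higher (8.33% and 7.57% of all genes), the median difference was -1.23, and in 26 of the 33 every distal array lay below every proximal one (15.0% of all genes). Epyc fell by 2.56 ± 0.572 on the log2 scale (SE; adjusted p = 0.00371) and Gdf5 by 2.16 ± 0.363 (adjusted p = 0.000311), as in the controls. Scrg1 fell by 1.87 ± 0.388, Comp, the pentameric glycoprotein of cartilage and tendon, by 1.84 ± 0.451, and Snorc, a membrane proteoglycan of cartilage, by 1.55 ± 0.499. Col11a1 fell by 1.23 ± 0.382, Ihh by 1.00 ± 0.225, Fgfr3 by 0.99 ± 0.325 and Sox6 by 0.99 ± 0.252. Trps1 rose by 1.73 ± 0.336 (adjusted p = 0.00115).

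The test of whether the genotype effect differs between distal and proximal ends, over both jaws, called 0 of 13850 genes in limma (430 genes and 0 members at an unadjusted p under 0.05). Without array 1 of the mutant distal maxilla the mutant mandible gave 16 members lower and 1 higher (9.2% and 8.15% of all genes), including all 10, with Matn1 (-2.14 ± 0.704), Mia (-2.08 ± 0.475) and Col11a2 (-1.86 ± 0.522) the largest of the added ones. Bone genes were lower distally in 5 of 8 (median -1.46; per-array means 9.65 to 10.24 against 11.66 to 11.83) and skeletal muscle genes in 11 of 13 (median -1.93). Their part was not tested.

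In the mutant maxilla the result turned on array 1 of the distal end. That array was picked out because these same genes read high on it. The calls and p-values without it are thus a description and not an independent test. With all arrays 2 members were called lower distally, Epyc and Gdf5, and 2 higher, Trps1 and Pth1r (2.66% and 2.48% of all genes), with a median of -0.77. Without that array 17 were lower and 3 higher (3.15% and 2.16%), with a median of -1.58. Epyc was again among them, but Gdf5 lost its call without that array (-1.35, adjusted p = 0.0671). With the replicate number as a block and all arrays 3 were lower and 3 higher (5.85% and 5.27%), with Col9a1 and Runx3 added. Col2a1 read 13.10 on array 1 and 9.13 and 8.93 on arrays 2 and 3, against 12.72, 11.51 and 12.66 at the proximal end. Array 1 thus lay above all 3 proximal arrays and the other two far below them. The difference was -1.91 ± 0.777 with it (SE; adjusted p = 0.201) and -3.27 ± 0.520 without it (adjusted p = 0.000962).

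Cnmd read 12.76, 7.50 and 6.98 against 11.90, 10.80 and 11.89, and differed by -2.45 ± 1.03 with array 1 (adjusted p = 0.222) and -4.29 ± 0.659 without it (adjusted p = 0.000730). Matn1 differed by -3.38 ± 1.16 (adjusted p = 0.109) and by -5.38 ± 0.787 (adjusted p = 0.000517), the latter against distal values of 5.57 and 5.23, below the filter level. Sox9 read 11.46 on array 1, above every other array of the study, and 8.84 and 8.63 on the other two, against 10.72, 9.80 and 10.42 proximally. It differed by -0.67 ± 0.501 with array 1 (adjusted p = 0.611) and by -1.58 ± 0.311 without it (adjusted p = 0.00466). Set beside each other, the ends of the control maxilla and of the mutant maxilla without array 1 were apart by -3.24 and -3.27 in Col2a1, and by -1.38 and -1.58 in Sox9. On array 1 the mean of the skeletal muscle list was 8.92, against 10.03 and 10.48 on the other two, and that of the neuron list was 9.49, against 8.60 and 8.41.

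At the distal end, the mutant jaws differed in 1 member with all arrays, Pth1r (0.43 ± 0.110, SE; adjusted p = 0.0275), with 1.71% of all genes called higher in the mandible and 3.21% lower. Without array 1 of the maxilla 17 members were called higher and 0 lower (2.34% and 3.96% of all genes). These calls too follow in part from the choice of that array by the same genes. Cnmd differed by 4.20 ± 0.659 and Cytl1 by 3.68 ± 0.693. Matn1 differed by 4.85 ± 0.787 (adjusted p = 0.000992), again against maxilla values below the filter level. Col2a1 stood at 3.04 ± 0.520 and Fgfr3 at 1.12 ± 0.282. Pth1r was no longer called (0.40, adjusted p = 0.0698).

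At the proximal end the mutant mandible exceeded the mutant maxilla in 5 members, with 0 lower (2.73% and 2.96% of all genes). In 22 of the 33 the mandible arrays all lay above the maxilla arrays, against 8.18% of all genes. Snorc read 10.31, 10.13 and 10.45 in the mandible, against 7.66, 6.70 and 7.71 in the maxilla, a difference of 2.94 ± 0.499 (SE; 7.68-fold, adjusted p = 0.00130). The groups were far apart. Fgfr3 differed by 1.58 ± 0.325 (adjusted p = 0.00577), Ihh by 1.09 ± 0.225 (adjusted p = 0.00581), Chst11, which sulfates chondroitin chains, by 0.98 ± 0.245 (adjusted p = 0.0198) and Pth1r by 0.92 ± 0.110 (adjusted p = 5.24e-05). Without the mutant array that stood apart 10 were called, including all 5 (3.0% of all genes). With mutant set 1 left out 3 were called, and the share of all genes in that fit is not given here. Bone genes were higher in the mandible in 6 of 8 (median 2.05; per-array means 11.66 to 11.83 against 9.55 to 10.005), and their part was not tested.

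Between genotypes, averaged over the 4 regions, 1 of the 33 members was called higher in mutants and 0 lower, while 18.3% of all genes were called higher and 15.5% lower. In this fit the members were thus called in a smaller share than all genes. The fit takes the 12 arrays of a genotype as independent, though the arrays of a set correlated at 0.40. Its p-values and its shares of genes called may therefore overstate the evidence. The median over the 33 was 0.23, against 0.02 for all genes. The member was Fgfr3, at 0.46 ± 0.163 (SE; 1.37-fold, adjusted p = 0.0361). It was not called when sets entered as random blocks (adjusted p = 0.271), nor without array 1 of the mutant distal maxilla (0.34, adjusted p = 0.0507). Without that array Chad, the leucine-rich protein chondroadherin, was called lower instead (-0.46 ± 0.162, adjusted p = 0.0380; 15.3% of all genes called lower). The call of Fgfr3 was also lost without array 1 of the control distal mandible, with control set 1 or 3 or mutant set 1 left out, with the Gapdh covariate, with 1 value per set and with the mean of all its probe sets, where it fell to 0.23.

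The proximal mandible was the region where the genotypes lay apart in most members. In 11 of the 33 all mutant arrays lay above all control arrays (15.4% of all genes), among them Sox5, Sox6, Acan, Hapln1, Matn1 and Cnmd, and in 1, Chad, all lay below (14.6% of all genes). The gap was narrow for Sox6 (lowest mutant array 10.876, highest control array 10.871) and for Cnmd (13.06 and 13.03). The median difference of the 33 was 0.56 against 0.00 for all genes. By limma 1 was called higher and 0 lower, shares near or below the 2.85% and 2.51% of all genes. Fgfr3 read 12.16, 11.74 and 11.87 in mutants and 10.34, 11.13 and 10.85 in controls, a difference of 1.15 ± 0.325 (SE; 2.22-fold, adjusted p = 0.0452). The call was lost with any control set or mutant set 3 left out, with the Gapdh covariate, with arrays centred on the median, without the filter on low values and when sets entered as random blocks (adjusted p = 0.0661). Snorc read 10.31, 10.13 and 10.45 against 7.98, 9.32 and 8.85, without overlap, and differed by 1.58 ± 0.499 (adjusted p = 0.0729). It passed without array 1 of the mutant distal maxilla (adjusted p = 0.0465), when 2 members were called (3.32% of all genes).

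The named matrix genes of the proximal mandible did not pass. Col2a1 read 13.58, 13.02 and 13.42 in mutants and 12.25, 13.16 and 12.86 in controls, which overlapped. Its difference was 0.58 ± 0.777, with a 95% interval from -1.04 to 2.21. Sox9 differed by 0.30 ± 0.501, with an interval from -0.75 to 1.35. Beside these values the bone list had a median of 0.78 in the same region, with 1 of 8 called higher (per-array means 11.66 to 11.83 in mutants and 10.44 to 11.28 in controls). The part of bone was not tested.

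In the other 3 regions no member was called between genotypes. In the distal mandible 0 members had an unadjusted p under 0.05 and in all 33 the genotypes overlapped, where 0.361% of all genes were called higher and 0.534% lower. Calls rest on an adjusted p under 0.05, so these shares and those below do not measure the overlap. Nor do they measure a count of members at an unadjusted p under 0.05, whose share of all genes is not given. In the proximal maxilla 1 member had such a p, the median was -0.24, and 3.32% and 2.38% of all genes were called. In the distal maxilla 4 members had such a p (3.02% and 4.06% of all genes called), and the median of 0.69 turned to -0.12 without array 1 of the mutants. Cnmd there read 12.76, 7.50 and 6.98 in mutants and 7.85, 6.81 and 5.96 in controls, a difference of 2.21 ± 1.03 (SE; adjusted p = 0.210) in which the first mutant array stands far above the other two. Trps1 differed by 1.04 there without overlap and was not called, though it was with the replicate number as a block (adjusted p = 0.0242). That block ties control and mutant arrays of the same number, which were not found to pair across genotypes. Tests of whether the genotype effect differs between the jaws called 0 of 13850 genes (480 genes and 2 members at an unadjusted p under 0.05).

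**Figure D5:**
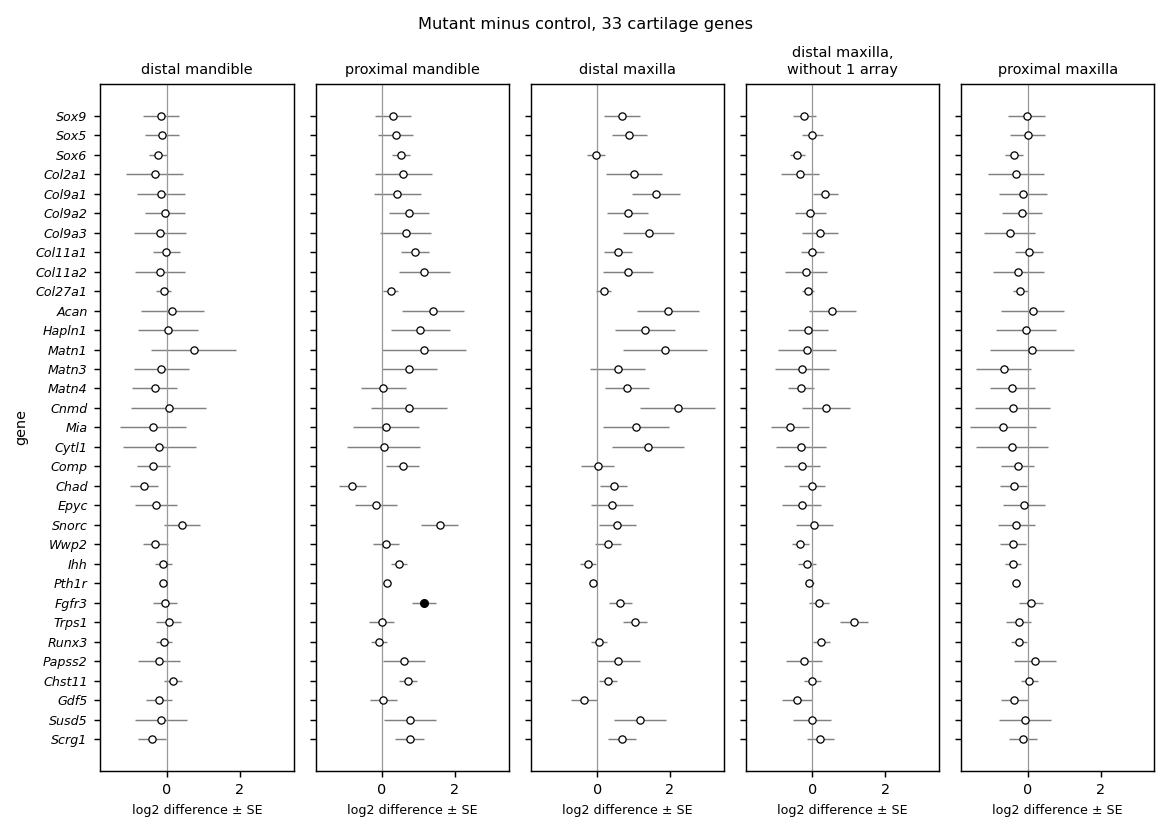
Mutant minus control log2 difference ± SE (horizontal axis) for the 33 tested cartilage genes in the 4 regions, with the distal maxilla also drawn without array 1 of the mutants; filled points were called by limma (adjusted p under 0.05). Fgfr3 in the proximal mandible (1.15) is the only filled point, and the points of the distal maxilla move from a median of 0.69 to -0.12 when that array is left out.

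Some members did not follow the module. Trps1 read highest in the distal mandible of both genotypes (12.45 ± 0.253 in controls and 12.50 ± 0.421 in mutants, SD, n = 3), next in the mutant distal maxilla (11.94 ± 0.666), and between 10.46 and 10.90 in the other 5 groups, whose spreads overlap. Gdf5 and Epyc read high at the proximal end of both jaws in both genotypes, Gdf5 between 8.02 and 8.89 there against 6.73 to 7.09 distally, and Epyc between 9.46 and 9.91 against 6.46 to 7.19. Pth1r varied less, from 11.11 ± 0.135 in the mutant proximal maxilla to 12.08 ± 0.0383 in the control distal mandible. Ihh was dim, with group means between 6.24 and 7.53, and stood highest in the mutant proximal mandible.

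Other genes of the cartilage programme were read from 3 more lists. Of 27 tested regulators and signals, 1 was called higher and 1 lower between the ends of the control maxilla, shares near the 3.37% and 2.69% of all genes: Cebpb, a C/EBP factor (0.83 ± 0.150, SE), and Foxc1, a forkhead factor of cranial mesenchyme (-1.56 ± 0.405). Of 26 other matrix genes and matrix enzymes, 5 were lower distally: Prelp (-1.52 ± 0.409), Mgp, the inhibitor of matrix calcification (-1.30 ± 0.356), Ccn2 (-1.23 ± 0.323), Ccn3 (-0.97 ± 0.228) and Tnc (-0.90 ± 0.194). Of 28 genes of proteoglycan synthesis and matrix secretion 0 were called in that comparison.

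In the mutant mandible, 11 of the 28 were lower distally and 1 higher, against 8.33% and 7.57% of all genes, led by Csgalnact1, which starts chondroitin chains (-1.42 ± 0.200, SE), Lox, which cross-links collagen (-0.90 ± 0.166), Loxl3 (-0.88 ± 0.268) and Creb3l1 (-0.74 ± 0.208). In the mutant proximal mandible against the control, where 2.85% of all genes were called higher and 2.51% lower, 4 of the 28 were higher and 0 lower: Csgalnact1 (1.02 ± 0.200), Chpf2 (0.43 ± 0.110), Csgalnact2 (0.42 ± 0.104) and Chsy1 (0.30 ± 0.0802), the last 3 also enzymes of chondroitin chains. Of the 27 regulators there, 2 were higher and 1 lower, the latter a share near that of all genes: Chrdl1, a BMP antagonist (1.06 ± 0.237), and Bmp2 (0.56 ± 0.147) were higher and Smad5 (-0.18 ± 0.0502) lower. Of the 26 matrix genes, 3 were higher: Matn2 (0.91 ± 0.220), Ccn3 (0.88 ± 0.228) and Col12a1 (0.46 ± 0.104).

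Over the 8 group means, the 10 genes outside the list whose pattern was most like the module mean were Acot11 (Pearson r = 0.98), Scin (0.97), Prelp (0.96), Adamts3, Fbln7, Osgin2, Trim47, Fkbp5, Ncmap and Tmem167b (0.94 for the last). Their size differed widely: the group means of Scin, an actin-severing protein, ran from 6.35 to 10.39, and those of Fkbp5 only from 10.61 to 10.75. These are correlations over 8 means that share tissue composition, given with no test, and 8 of the 10 were among the closest 10 without array 1 of the mutant distal maxilla.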

How the data were processed

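RNA from jaw pieces was hybridised to Affymetrix arrays as labelled cRNA, 1 array a sample. The deposited values are log2 probe set values from RMA, per the submitters' processing notes, and the RMA version is not named there. RMA makes arrays alike in distribution, so fold changes are relative to each array's whole. Of 45101 probe sets, 34958 name 1 gene and were kept, 932 name several and 9211 none. The 8 groups were fitted together in limma 3.58.1 (R 4.3.3, 16 residual degrees of freedom), with p-values adjusted by Benjamini-Hochberg over 13850 genes and called under 0.05. The number of arrays limits the precision. Members, lists and the rule for named genes (all members accounted for, those called given by size, up to 4 called genes per other list and comparison, and 10 genes of like pattern) were chosen with earlier results of these data known. For 1 list, 5 called genes are named.

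Replicate numbers were checked as pairs from the correlation of deviations from group means. These exceeded 0.1 for every number within each genotype, except between control proximal jaws (0.26, 0.00396 and 0.34), and ran from -0.13 to 0.40 between genotypes, so the numbers pair arrays within a genotype only, with that exception. The test was tried on simulated data for the ends of the control maxilla over 13850 genes, where 90% of 50 genes changed by 1 log2 unit and 100% of those changed by 2, 3 or 4 were recovered, beside 13 false calls (a false share of 0.0625). This recovery does not speak for members of wide spread: Matn3 was not called in that comparison at -2.34 ± 0.757 (SE). The simulated arrays were drawn independently, while the real arrays of a set correlated at 0.40. The recovery and the false share therefore do not cover that correlation, nor arrays that stand apart. The alternatives tried were other filters, scalings, probe set rules and blocks, a Gapdh covariate and leaving out arrays. The 2 fits that leave out a single array were chosen after the data were seen, by the values of the cartilage genes.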

Additional observations from a re-analysis of the deposited data

Results flagged for a closer look

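Col9a1 stood out because its difference between the ends was tested to differ between the control jaws, by 3.503 (adjusted p = 0.0484, limma with Benjamini-Hochberg adjustment). In 3 further members every array of one pair of groups moved one way and every array of another pair the opposite way. The share of all genes that do so was not taken, so this count is not read as a result about the members. Sox9 was higher in the control mandible than the maxilla at the distal end, by 0.77, and lower at the proximal end, by -0.38. The difference of these, tested as jaw by end, was 1.15 ± 0.709 (SE; adjusted p = 0.587). The gap of Sox9 at the proximal end was narrow, with the highest mandible array at 10.175 and the lowest maxilla array at 10.182. Matn4 read likewise, with 2.15 at the distal end and -0.70 at the proximal end. Its jaw by end value of 2.85 ± 0.861 was not called (adjusted p = 0.0921), but was with the replicate block (adjusted p = 0.0464) and without array 1 of the mutant distal maxilla (adjusted p = 0.00159). Sox6 was higher in mutants in the proximal mandible, by 0.52, and lower in the proximal maxilla, by -0.37. In the proximal mandible the gap was narrow, with the lowest mutant array at 10.876 and the highest control array at 10.871. The difference between the jaws in the genotype effect on Sox6 at the proximal end alone was not tested. Over both ends that difference was not called (0.34 ± 0.252).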

How the results depend on the processing

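Over all alternatives, 143 differences of single members gave 2430 values, of which 2225 kept their direction and side of the threshold, 49 passed it newly, 156 no longer passed and 0 turned direction. The 143 do not cover every member in every comparison. Outside them directions did turn: the median genotype effect in the distal maxilla went from upward to downward without array 1 of the mutants, as given above. Counts of called members moved as follows, and the cause was not tested. Calls among all genes move with the fit too: between the control maxilla ends 2.69% were called lower, and 4.89% with the replicate block. The counts here and in the next paragraph stand without such shares, so they are not read as a result about the cartilage genes. With only the groups compared in the fit, the control maxilla ends went from 16 to 25, the mutant mandible ends from 10 to 26, the control test of jaw by end from 1 to 8, the mutant maxilla ends from 4 to 0 and the mutant distal jaws from 1 to 0. With the set as a random block the mutant maxilla ends had 9, the mutant distal jaws 2, the mutant proximal jaws 10 and jaw by end 4, while the genotype average and the proximal mandible genotype effect went from 1 to 0. With the replicate block the genotype effect of the distal maxilla went from 0 to 1, the mutant distal jaws from 1 to 2 and jaw by end from 1 to 3, and it lost no call within a genotype. For the genotype effect this block ties control and mutant arrays of the same number, which were not found to pair. With the Gapdh covariate the genotype average had 3, the proximal mandible 0, the distal and proximal maxilla 2 each, the mutant maxilla ends 7, the mutant distal jaws 2, the mutant proximal jaws 8 and jaw by end 2. Averaging the probe sets of a gene gave 0 for the genotype average and 1 for the distal maxilla. The proximal mandible effect had 0 with arrays centred on the median and 0 without the filter, and jaw by end had 0 without the filter. With 1 value per set the genotype average had 0.

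Leaving out arrays or sets gave counts from 0 to 4 for the genotype average, 0 to 3 for the proximal mandible, 0 to 1 for the distal and for the proximal maxilla, 2 to 5 for the control mandible ends, 2 to 21 for the control maxilla ends, 1 to 21 for the control distal jaws, 0 to 1 for the control proximal jaws, 5 to 17 for the mutant mandible ends, 0 to 20 for the mutant maxilla ends, 0 to 17 for the mutant distal jaws, 3 to 10 for the mutant proximal jaws and 0 to 10 for jaw by end. The mandible minus maxilla difference of the module mean at the control proximal ends, 0.22, ran from -0.20 without control set 2 to 0.48 without control set 1. Dim members (Ihh, and Matn1, Acan, Comp, Chad and Scrg1 in the distal maxilla) lie near or below the 40th percentile of the arrays, so the depth of signal limits their differences. Some distal arrays of Cnmd and Epyc lie below it too. Quantile normalizing again changed no call among the 143. RMA had already made the arrays alike in distribution, so this alternative could change little. Its values are counted among those that kept their side of the threshold.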
